A study of Mus musculus with 24 samples.

Results

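The left ventricle of male mice under metabolo-hypertensive stress (MHS) was compared at day 28 with that of male control mice. The libraries were chosen by sample title, 3 of MHS and 3 of control mice, and are 6 of the 24 libraries of the series. Of the 24972 gene symbols in the deposited table, the 12519 that reached 1 TPM in 3 or more of these 6 libraries were tested. TPM counts the transcripts of a gene per 1e+06 transcripts of its library, after correction for transcript length. Each library adds up to 1e+06 TPM, so a gene can lose share because others gain, and the number of reads behind a value is unknown. Among the tested genes 11765 reached 1 TPM in all 6 libraries. A further 62 reached it in every MHS library and in no control library and 16 in every control library and in no MHS library, so these had to differ to enter the test.

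All mice were C57Bl6/J, and RNA came from the free wall of the left ventricle. Control mice were untreated. MHS combined angiotensin II (AngII), the peptide hormone that constricts vessels and raises blood pressure, with a high-fat diet (HFD). The age of the mice and the doses are not given in the sources used here. For comparison there were 3 female MHS and 3 female control libraries at day 28, and 3 libraries of male mice in reverse remodeling after MHS (MHS_RR) with 3 male controls at day 56. The time and treatment tags go against the titles in 12 of the 24 libraries. The MHS libraries titled day 28 are tagged as untreated at 56 days, and the controls titled day 56 are tagged as treated with AngII + HFD at 28 days. Titles were followed here, and the separate group tag matches them. Acta1, a transcript of loaded myocardium, was between 3489 and 4406 TPM in the male libraries titled MHS and between 287 and 1338 TPM in all other male libraries. The labels do not say that each library is a separate mouse, so p-values measure only the spread between libraries.

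Between 12168 and 12523 genes reached 1 TPM in each of the 6 libraries. On the principal components of the tested genes, the first (40.8% of the variance) placed the 3 controls between -25.2 and -5.60 and the 3 MHS libraries between 12.6 and 21.5. The second (32.4%) did not follow the groups, with control 1 at -19.6 and MHS 2 at -19.9 on one side and control 3 at 20.7 on the other. GC content and transcript length accounted for 30.8% of the deviations of control 1 from the mean of all libraries and for between 1.76% and 15.9% in the other 5. Defining transcripts of ventricular muscle were abundant in all 6, with Myl2 at 33588, 33522 and 34971 TPM in controls. Of the atrial muscle genes, Myl7 was at 0.139, 1.02 and 0 TPM in controls 1 to 3 and 8.10, 0 and 1.61 TPM in MHS 1 to 3. No pair of libraries held identical values.

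As background, the hypertrophic response of the ventricle joins several programmes. Cardiomyocytes under load re-express genes of the fetal heart, such as skeletal actin and the slow myosin heavy chain, and add proteins to the Z-disc, the structure that anchors the thin filaments and senses stretch. Fibroblasts turn into matrix-producing cells that deposit collagens and matricellular proteins, and mitochondrial fuel use shifts. AngII acts on both cell types through its type 1 receptor, and the high-fat diet raises the supply of fatty acids.

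Promoters of 4 chosen genes that rose are shown near the transcription start, where the best known load-responsive elements of muscle promoters lie. All 4 held a match, so they do not represent the genes that rose. Shares over the named genes that rose follow the sequences. The windows run from 250 bases before to 50 bases after the start and are RefSeq sequences on GRCm38.p6. The files themselves were made on mm9, so these coordinates belong to the reference only. Capitals mark matches, on either strand, to the TEAD core CATTCC and to the CArG box bound by serum response factor (SRF). The AP-1 site TGANTCA and the MEF2 site were also searched and had no match in these 4 windows, and no match overlapped one of another motif.
Acta1, chr8:123894726-123895025, minus strand: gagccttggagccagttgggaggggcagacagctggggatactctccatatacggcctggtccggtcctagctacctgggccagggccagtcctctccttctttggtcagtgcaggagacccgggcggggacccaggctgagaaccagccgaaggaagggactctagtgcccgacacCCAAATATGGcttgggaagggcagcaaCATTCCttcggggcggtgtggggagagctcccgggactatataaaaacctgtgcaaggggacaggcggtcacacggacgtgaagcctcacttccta
Ankrd1, chr19:36119795-36120094, minus strand: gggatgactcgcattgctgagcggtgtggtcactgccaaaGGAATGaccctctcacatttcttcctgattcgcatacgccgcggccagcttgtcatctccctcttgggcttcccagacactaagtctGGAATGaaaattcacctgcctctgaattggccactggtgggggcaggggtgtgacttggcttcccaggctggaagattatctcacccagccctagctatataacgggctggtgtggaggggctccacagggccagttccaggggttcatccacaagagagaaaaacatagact
Fhl1, chrX:56779433-56779732, plus strand: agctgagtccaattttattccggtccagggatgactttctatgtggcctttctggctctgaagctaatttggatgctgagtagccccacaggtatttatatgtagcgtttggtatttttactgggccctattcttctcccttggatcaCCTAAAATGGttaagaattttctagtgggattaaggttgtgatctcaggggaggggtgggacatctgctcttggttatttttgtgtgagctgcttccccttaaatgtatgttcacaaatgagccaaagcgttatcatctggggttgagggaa
Thbs4, chr13:92794769-92795068, minus strand: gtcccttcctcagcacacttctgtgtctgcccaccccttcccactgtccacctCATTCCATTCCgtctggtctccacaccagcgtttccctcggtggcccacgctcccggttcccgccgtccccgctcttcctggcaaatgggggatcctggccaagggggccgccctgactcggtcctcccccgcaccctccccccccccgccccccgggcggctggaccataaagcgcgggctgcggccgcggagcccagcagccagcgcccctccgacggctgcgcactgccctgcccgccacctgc
Acta1 held a CArG box that began 73 bases before the start and a TEAD core 46 bases before it. Ankrd1 held a pair of TEAD cores at 210 and 123 bases, Fhl1 a CArG box at 102 bases, and Thbs4 overlapping TEAD cores at 197 and 192 bases. Fhl1 had 2 starts, and the start with the most kinds of motif was shown, so its match was favoured by that choice. Of the 123 named genes that rose, 87 had a promoter in the table. TEAD cores were found in 18 of these (20.7%), against 16.6% of the 27025 genes of the table. AP-1 sites were found in 9.20% against 8.97%, CArG boxes in 2.30% against 1.81% and MEF2 sites in 2.30% against 3.70%. These are matches of letters and were not tested.

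Expression was compared as log2(TPM + 1) with limma, which gives each gene a log2 fold change with its standard error (SE, n = 3 per group) and a p-value adjusted by the Benjamini-Hochberg method over all 12519 genes. Genes with an adjusted p below 0.05 are named called, and rose or fell is written of these only. Values of single libraries are given in the order of replicates 1, 2 and 3. Of the tested genes, 1342 (10.7%) were called, 1011 higher (8.08%) and 331 lower (2.64%) in MHS. The change passed a fold of 2 in 120 (0.959%), of which 109 rose and 11 fell. The TPM ranges of the groups did not overlap in 3382 genes (27%), and 1315 of the called genes were among these. Ranges that lie apart are therefore usual among called genes. Where stated below for a called gene they describe its values and are no added result. Changes were mostly moderate, with a median log2 fold change of 0.50 among the genes that rose and -0.42 among those that fell.

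The number of calls and their balance depended on single libraries and on scaling. Without control 2, MHS 2 or MHS 3 the count was 790, 717 and 690, and in a fit on these 6 libraries alone it was 653. With TPM as deposited 75.3% of the calls were higher. Median-of-ratios scaling gave 670 higher and 538 lower calls. Quantile normalization gave 619 and 642, and a correction for length and GC content 771 and 832. In total 539 genes were called higher and 308 lower under all 4 of these scalings.

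**Figure D1:**
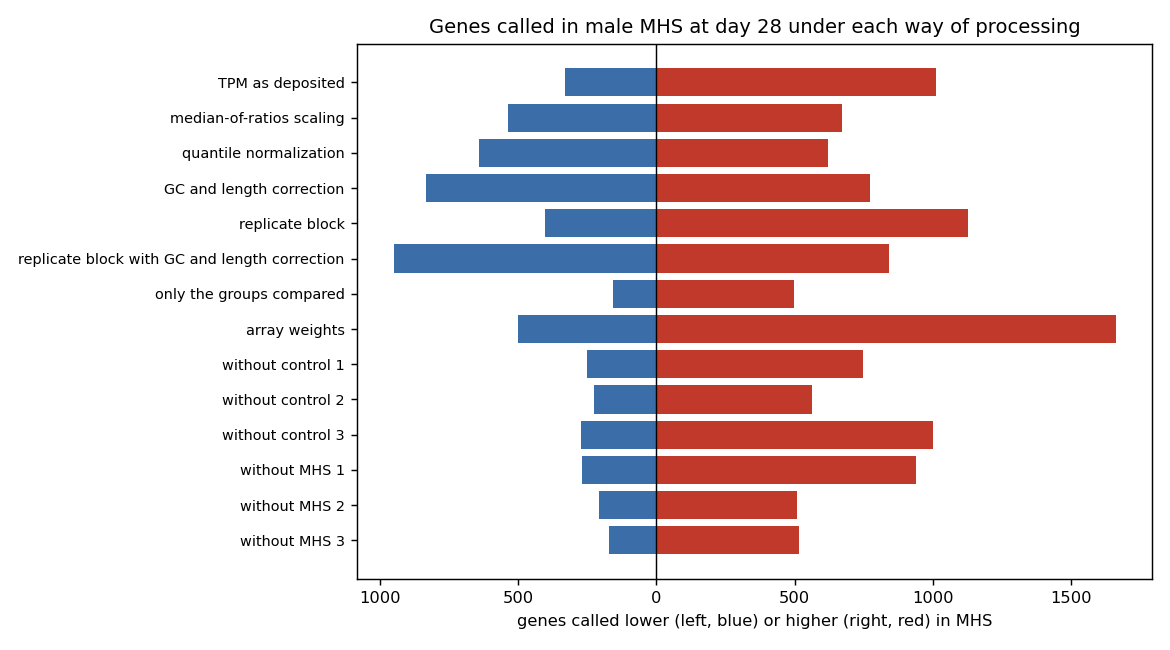
Genes called lower (blue, to the left) and higher (red, to the right) in male MHS at day 28, for TPM as deposited, other scalings and fits, and with each of the 6 libraries left out. The bar for TPM as deposited holds 331 lower and 1011 higher genes, and the balance is near even with quantile normalization (642 and 619) and with the length and GC correction (832 and 771).

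Cardiomyocyte genes of the response to load rose. Acta1, the skeletal alpha-actin re-expressed by loaded myocardium, was at 683, 647 and 326 TPM in controls and 4406, 3489 and 3660.1 TPM in MHS (2.87 ± 0.40 as log2 fold change, adjusted p = 1.31e-04). The ranges were far apart, and the means differed 6.98-fold. Myh7, the slow myosin heavy chain, was at 34.9, 21.1 and 36.0 TPM in controls and 109, 154 and 269 TPM in MHS (2.43 ± 0.51, adjusted p = 0.00368). Its highest value was in MHS 3, and no control reached the lowest MHS value. Ankrd1, a titin-bound stretch sensor, went from 961, 1205 and 1217 to 2707, 3290.2 and 3754 TPM (1.52 ± 0.26, adjusted p = 6.95e-04).

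The adult partners of these isoforms were not called with TPM as deposited. Actc1, the cardiac actin, was at 22155, 17675 and 17499.9 TPM in controls and 20147, 19654 and 20104 TPM in MHS (adjusted p = 0.643). Myh6, the fast myosin heavy chain of the adult mouse ventricle, was at 11398, 10101 and 12724 TPM in controls and 9975, 10961 and 11109 TPM in MHS (adjusted p = 0.623), although GC and length correction called it lower (0.0350). Acta1 made up 2.99%, 3.53% and 1.83% of the Acta1 and Actc1 sum in controls and 17.9%, 15.1% and 15.4% in MHS. Myh7 made up 0.305%, 0.208% and 0.282% of the Myh6 and Myh7 sum in controls and 1.08%, 1.39% and 2.36% in MHS. Both fetal isoforms took a larger share in every MHS library than in any control, while the adult isoforms remained most of each sum.

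The natriuretic peptides, cardiac hormones that lower blood pressure and mark wall stress, were less clear. Nppa was at 366, 257 and 284 TPM in controls and 389, 1071 and 1345 TPM in MHS and was not called (1.46 ± 0.49, adjusted p = 0.0620). MHS 1 lay just above the highest control, and Nppa was called without it (adjusted p = 0.0133). Nppb went from 561, 403 and 289 to 963, 786 and 831 TPM (1.09 ± 0.34, adjusted p = 0.0473). Its call was lost under median-of-ratios scaling (0.0712) and without control 2 or 3 (0.119 and 0.148) or any one MHS library (0.119, 0.0939 and 0.114). Tnnt1, the slow skeletal troponin T, moved the other way, from 23.1, 34.7 and 28.9 to 14.4, 15.2 and 19.8 TPM (-0.77 ± 0.14, adjusted p = 0.00142). Of the fetal gene list 5 of 9 tested members rose and 1 fell (median 1.09, against 0.08 over all tested genes), and 3 rose without control 2, without MHS 2 or under median-of-ratios scaling.

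**Figure D2:**
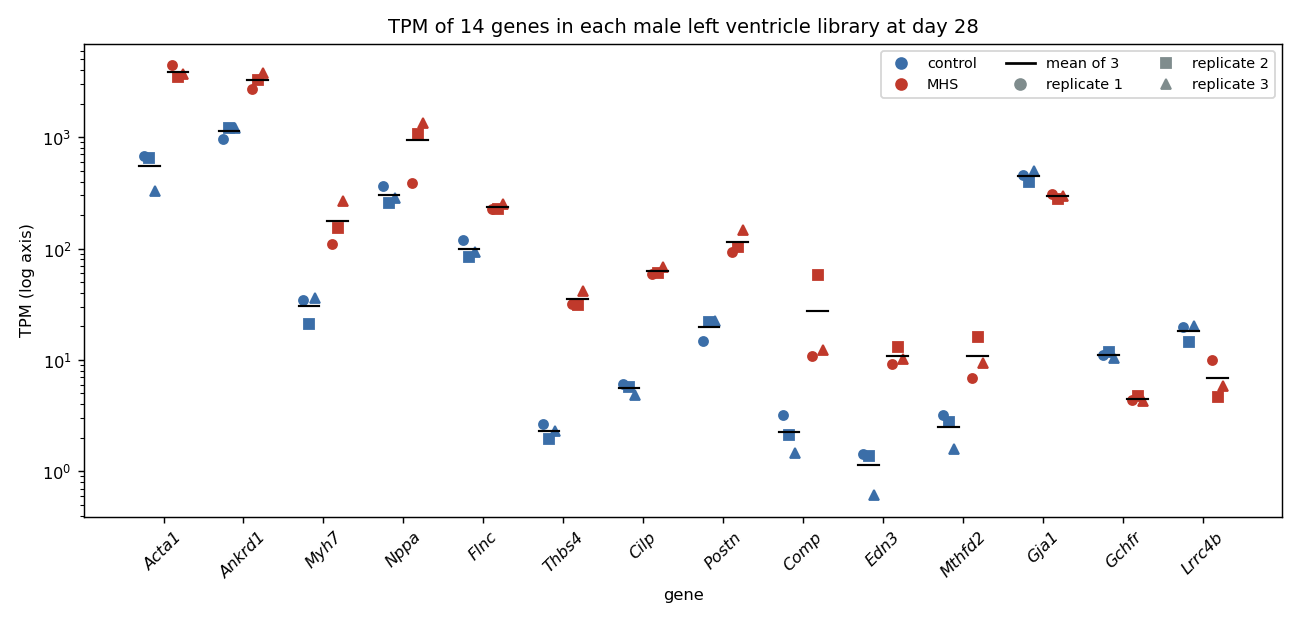
TPM on a log axis of 14 genes in each of the 6 male libraries at day 28, with controls in blue, MHS in red, marker shape for the replicate and a bar at the mean of 3. The ranges of the groups are apart in every gene shown, narrowly so for Nppa, where MHS 1 (389 TPM) lies near the highest control (366 TPM), and Comp is highest in MHS 2 (58.4 TPM).

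Genes of stretch sensing and the Z-disc rose together. Of 27 tested members 22 rose and none fell, and all 27 had a positive log2 fold change (median 0.59). Flnc, filamin C, which crosslinks actin at the Z-disc and at sites of repair, was at 119, 83.3 and 94.0 TPM in controls and 225, 228 and 251 TPM in MHS (1.26 ± 0.12, adjusted p = 4.58e-06). Hspb7, a small heat shock protein that binds filamin C, went from 2120.0, 1641 and 1833 to 3093, 3234 and 3313 TPM (0.79 ± 0.08, adjusted p = 4.78e-06). Both were higher in every MHS library than in any control. Fhl1, a LIM protein of the titin stretch-sensing complex, went from 97.4, 101.1 and 105 to 222, 164 and 189 TPM (0.91 ± 0.11, adjusted p = 3.14e-05). Synpo2l, a Z-disc protein that binds actin, went from 92.7, 69.8 and 85.0 to 156, 199.8 and 232 TPM (1.23 ± 0.15, adjusted p = 5.20e-05). Under the other scalings between 15 and 20 members rose and none fell.

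Adult sarcomere genes moved in both directions, with 2 of 19 members higher and 5 lower, against 8.08% and 2.64% over all tested genes. Myl2, the regulatory light chain of the ventricle, fell from 33588, 33522 and 34971 to 24559.9, 25624 and 25511 TPM (-0.43 ± 0.06, adjusted p = 9.43e-05). Tnni3, cardiac troponin I, fell from 10491, 10534 and 10739.7 to 8176, 7578 and 8036 TPM (-0.42 ± 0.07, adjusted p = 4.66e-04). These are among the most abundant transcripts, and neither was called under quantile normalization (0.218 and 0.411). Under that scaling 3 members of the list were lower, and after GC and length correction 8. Mylk3, the cardiac myosin light chain kinase, fell (-0.40 ± 0.08, adjusted p = 0.00350). Actn2, the alpha-actinin of the Z-disc, rose from 1722, 1446 and 1612 to 1999.9, 2084 and 2152 TPM (0.39 ± 0.07, adjusted p = 0.00115).

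Genes of calcium cycling and of ion channels were called at a share near that of all tested genes (10.7%). Of 23 calcium cycling genes 2 rose and 1 fell (median 0.12), but 4 rose without control 3 and 1 without any other library, and 1 fell without control 2 and 0 without any other. Casq2, the calcium store protein of the sarcoplasmic reticulum, rose from 920.0, 785 and 842 to 1077, 1190.3 and 1188 TPM (0.44 ± 0.07, adjusted p = 5.55e-04). Atp2a2, the SERCA2 calcium pump, was at 8558, 7258 and 8370.1 TPM in controls and 6942, 7311 and 6972 TPM in MHS and was not called (-0.18 ± 0.08, adjusted p = 0.153), but median-of-ratios scaling and GC and length correction called it lower (0.0305 and 0.00350). Of 24 channel genes 1 rose and 2 fell, the latter count being 1 without control 2 or MHS 3. Gja1, connexin 43, which forms the gap junctions between ventricular cardiomyocytes, fell from 456, 398 and 500.3 to 306, 279.8 and 295 TPM (-0.61 ± 0.12, adjusted p = 0.00282). The lowest control was above the highest MHS library. Kcnip2, a subunit of the transient outward potassium channel, fell (-0.36 ± 0.09, adjusted p = 0.0136), a call that was lost without control 2 (0.0551) or MHS 3 (0.0761). Scn4b, a sodium channel beta subunit, rose by 0.59 ± 0.14 (adjusted p = 0.0119), but not without control 2 (0.0718) or MHS 2 (0.0815).

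On the log2(TPM + 1) scale the largest fold changes of called genes were in the extracellular matrix, in Thbs4 and Cilp. This scale shrinks the changes of low genes, so a ranking by the ratio of mean TPM can differ. Thbs4, a matricellular thrombospondin, was at 2.66, 1.96 and 2.30 TPM in controls and 31.5, 31.4 and 42.0 TPM in MHS, 15.2-fold by the means (3.44 ± 0.59 on the log2 scale, adjusted p = 7.65e-04). Cilp, a matrix protein of fibroblasts, went from 6.13, 5.74 and 4.81 to 59.2, 60.02 and 68.3 TPM (3.28 ± 0.41, adjusted p = 5.54e-05). In both genes the 3 MHS libraries lay close together and well above the controls. Postn, periostin, secreted by activated fibroblasts, went from 14.7, 22.1 and 22.4 to 92.7, 102 and 148 TPM (2.47 ± 0.47, adjusted p = 0.00199). Thbs1, a thrombospondin that activates latent TGF-beta, went from 5.07, 5.41 and 4.09 to 19.7, 33.1 and 19.6 TPM (2.07 ± 0.37, adjusted p = 0.00123). Sparc, a collagen-binding glycoprotein, started at a far higher level, 339, 268 and 283 TPM, and reached 499, 626 and 613 TPM (0.96 ± 0.14, adjusted p = 1.96e-04). Of 26 matricellular genes 15 rose and none fell (median 0.84), with 9 higher without control 2, 8 without MHS 2 and 10 under quantile normalization. One of the 15, Spp1, entered the test through the MHS libraries only.

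Comp and Spp1 were highest in MHS 2, and their calls depended on several libraries. Comp, a cartilage thrombospondin, was at 3.24, 2.10 and 1.47 TPM in controls and 10.9, 58.4 and 12.4 TPM in MHS (2.73 ± 0.76, adjusted p = 0.0248). MHS 2 stood far above MHS 1 and MHS 3, and Comp was not called without it (0.152) or without control 2 or 3 (0.0746 and 0.0670). Spp1, osteopontin, was at 0.741, 0.265 and 0.221 TPM in controls and 1.23, 19.8 and 3.40 TPM in MHS (2.08 ± 0.67, adjusted p = 0.0498). MHS 2 again held the highest value, and the call was lost under median-of-ratios scaling (0.0566), quantile normalization (0.0578) and GC and length correction (0.0529). It was also lost without control 1, 2 or 3 (0.0749, 0.136 and 0.0994) or MHS 2 or 3 (0.288 and 0.0861).

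Of 23 collagen chains tested 19 rose and 1 fell (median 0.70). Of the 19, 2 had entered the test through the MHS libraries only, so that their direction was set by the filter. On the log2(TPM + 1) scale Col8a1, a short-chain collagen of activated fibroblasts, rose most. It went from 7.99, 10.9 and 12.1 to 39.6, 39.9 and 51.7 TPM (1.99 ± 0.24, adjusted p = 3.56e-05). Col5a2, which sets the width of fibrils, went from 13.0, 13.6 and 12.8 to 26.3, 34.6 and 31.6 TPM (1.16 ± 0.24, adjusted p = 0.00358). In both genes the MHS and control ranges were apart. Col6a2 of the microfibrils around cells rose by 0.61 ± 0.11 (adjusted p = 0.00137) and Col15a1, close to the basement membrane, by 0.71 ± 0.13 (adjusted p = 0.00166). Of the chains of the bulk fibrils, Col1a1 went from 49.3, 41.1 and 39.8 to 74.2, 105 and 90.9 TPM (1.03 ± 0.25, adjusted p = 0.0120) and was not called without MHS 2 (0.0652). Its partner Col1a2, named after its values were seen, went from 54.3, 54.4 and 49.7 to 92.9, 138 and 107 TPM (1.06 ± 0.24, adjusted p = 0.00583) and was called under every alternative. Col3a1 was at 100.1, 93.5 and 91.8 TPM in controls and 131, 184 and 152 TPM in MHS, with ranges apart, and was not called (0.69 ± 0.28, adjusted p = 0.127), except in the fit on these 6 libraries alone (0.0210). The number of chains that rose was 12 without control 2, 9 without MHS 2 and 11 without MHS 3, and 17 to 19 under the other scalings.

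Genes that organise and crosslink the matrix rose with the collagens. Ltbp2, a latent TGF-beta binding protein of microfibrils, was at 1.39, 0.999 and 0.697 TPM in controls and 9.12, 23.4 and 14.4 TPM in MHS (2.96 ± 0.49, adjusted p = 6.02e-04). Mfap4 and Mfap5, microfibril proteins, rose by 1.75 ± 0.25 and 1.53 ± 0.20 (adjusted p = 2.00e-04 and 6.17e-05). Fbln2, fibulin 2, rose by 0.77 ± 0.09 (adjusted p = 4.15e-05). Together 8 of 17 elastic fibre genes rose and 2 fell, with 5 higher without control 2 and 5 without MHS 2, and 1 lower without control 1 or 2 and 0 without control 3, MHS 2 or MHS 3. One that fell was Efemp1, fibulin 3 (-1.05 ± 0.32, adjusted p = 0.0396), which was not called without control 1, 2 or 3 (0.0580, 0.0989 and 0.0995) or MHS 2 or 3 (0.168 and 0.134). Of the small leucine-rich proteoglycans, which bind collagen fibrils, 4 of 9 rose, and 2 did without MHS 2 or MHS 3. Lum, lumican, rose by 1.31 ± 0.14 (adjusted p = 9.98e-06) and Bgn, biglycan, by 1.29 ± 0.16 (adjusted p = 3.79e-05).

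Of 19 genes of collagen processing 11 rose and none fell. Pcolce, which speeds the cleavage of procollagen, went from 63.8, 61.5 and 53.3 to 91.0, 94.8 and 98.0 TPM (0.66 ± 0.11, adjusted p = 7.32e-04). P4ha1, a prolyl hydroxylase, rose by 0.78 ± 0.13, and the lysyl oxidases Loxl1 and Loxl2 by 0.72 ± 0.13 and 0.84 ± 0.18 (adjusted p between 7.85e-04 and 0.00409). The count was 7 without control 2, 4 without MHS 2, 7 without MHS 3 and 7 under median-of-ratios scaling or quantile normalization.

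Genes of matrix breakdown and its control also rose. Timp1, which blocks matrix metalloproteinases, was at 3.74, 2.78 and 2.65 TPM in controls and 13.1, 24.7 and 18.2 TPM in MHS (2.24 ± 0.40, adjusted p = 0.00112). The gelatinase Mmp2 rose as well (1.06 ± 0.18, adjusted p = 7.16e-04). Of 24 proteases and inhibitors 7 rose (1 of them entered the test through the MHS libraries only) and 1 fell, the latter not without control 1. Of 13 basement membrane genes 2 rose and 1 fell, but 4 rose without MHS 1, 3 without control 1, 1 without control 2, MHS 2 or MHS 3 and 7 with array weights.

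Among growth factor genes of the TGF-beta and activin family 10 of 27 rose and none fell (median 0.33), and 6 rose without MHS 3. One of the 10 entered the test through the MHS libraries only. The ligand Tgfb2 was at 3.05, 3.74 and 5.32 TPM in controls and 8.21, 13.2 and 14.8 TPM in MHS (1.36 ± 0.19, adjusted p = 1.85e-04). Other members that rose were Fstl3, Bambi and Pmepa1. Fstl3, which traps activin, went from 5.58, 3.93 and 4.42 to 16.7, 13.9 and 15.4 TPM (1.54 ± 0.24, adjusted p = 3.69e-04). Bambi, a decoy receptor, rose by 0.99 ± 0.13 (adjusted p = 5.54e-05) and Pmepa1, a negative feedback target, by 0.69 ± 0.12 (adjusted p = 0.00113). Ctgf, a matricellular target of this pathway, went from 59.0, 56.1 and 74.1 to 179.6, 168 and 169 TPM (1.44 ± 0.25, adjusted p = 9.64e-04).

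Of 11 secreted Wnt modulators 2 rose. Frzb, a Wnt antagonist, went from 3.23, 3.15 and 3.26 to 8.25, 15.7 and 10.5 TPM (1.53 ± 0.27, adjusted p = 9.92e-04). Dkk3 went from 1.02, 1.32 and 0.630 to 7.13, 11.4 and 7.26 TPM (2.26 ± 0.68, adjusted p = 0.0366), but removal of control 1, 2 or 3 (0.0770, 0.0781 and 0.0837) or MHS 1, 2 or 3 (0.0610, 0.126 and 0.0852) ended its call. Among 21 integrin subunits 5 rose (1 of them entered the test through the MHS libraries only), among them Itga9 (0.73 ± 0.12, adjusted p = 6.75e-04) and Itga5, the fibronectin receptor (0.45 ± 0.09, adjusted p = 0.00313). That count was 2 without control 1, MHS 2 or MHS 3 and 3 without control 2, and 1 in the fit on these 6 libraries alone.

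Genes outside the pathway lists were also among the 20 highest fold changes. They included Pamr1 (1.95 ± 0.36), Nlrc3, a regulator of inflammatory signalling (1.81 ± 0.20), Fibin (1.71 ± 0.25) and Adamtsl2, a microfibril-binding glycoprotein (1.67 ± 0.20), with adjusted p between 2.10e-05 and 0.00149. Nox4, Egr3 and Spp1 are among the 62 genes that entered the test through the MHS libraries.

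Cell markers moved with the matrix genes. Of 11 markers of activated fibroblasts 9 rose and none fell, and their summed level was between 168 and 194 TPM in controls and between 515 and 649 TPM in MHS. Several of these markers are the matrix genes named above, so these counts are not separate. The 9 became 6 without control 2 or MHS 2, 7 without control 1 and 8 without control 3. It was also 8 under median-of-ratios scaling and quantile normalization. Of the 9, Acta2 was not called under these 2 scalings (0.0593 and 0.0513). Nor was it called without control 1 or 2 or MHS 1 or 2 (0.103, 0.0871, 0.101 and 0.134). Of 15 general fibroblast markers 7 rose and 1 fell (median 0.42), summed between 2033 and 2215 and between 2448 and 2647 TPM. Pi16 of quiescent adventitial fibroblasts rose from 44.9, 55.5 and 52.2 to 125, 83.3 and 98.4 TPM (0.98 ± 0.14, adjusted p = 1.97e-04), and Meox1, a transcription factor of activated fibroblasts, rose from 14.98, 13.6 and 12.2 to 28.5, 32.5 and 39.7 TPM (1.23 ± 0.20, adjusted p = 6.02e-04). Scara5 was the member that fell, from 15.5, 15.9 and 18.0 to 11.9, 9.65 and 8.44 TPM (-0.68 ± 0.12, adjusted p = 7.32e-04). Pdgfra, Tcf21, Gsn, Dpt, Dpep1, Ddr2 and Lamc1 were not called, with changes between -0.31 (Dpep1) and 0.42 (Ddr2). In whole tissue a change in the number of cells of a type and a change in RNA per cell cannot be told apart.

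Markers of other cell types follow. Ventricular cardiomyocyte markers fell in 4 of 9, the light chains Myl2 and Myl3 and the troponins Tnni3 and Tnnt2, and summed between 131475 and 135975 TPM in controls and between 115328 and 117137 TPM in MHS. None of the 9 was called under quantile normalization. Endothelial markers rose in 2 (1 under the other scalings and without control 2, control 3 or MHS 2, 3 without MHS 1) of 16 and summed between 2809 and 2935 and between 3223 and 3494 TPM. Fabp4, also on the adipocyte list, made up most of that sum and was not called (adjusted p = 0.153). It was at 1552, 1696 and 1733 TPM in controls and 1912, 2046 and 2069 TPM in MHS. Mural markers rose in 3 of 13 and fell in none, whereas 2 were lower when libraries were scaled by median of ratios, 2 after GC and length correction and 1 after quantile normalization. They summed between 2089 and 2363 and between 2690.2 and 3020.1 TPM. Among those that rose were the pericyte proteoglycan gene Cspg4 (0.78 ± 0.14, adjusted p = 0.00113) and Des, desmin (0.43 ± 0.09, adjusted p = 0.00300). Des, which cardiomyocytes also express, made up most of the sum. It was at 1466, 1362 and 1427 TPM in controls and 1797, 1966 and 1956 TPM in MHS. With TPM as deposited Rgs5, Pdgfrb and Notch3 (0.30, 0.11 and 0.36) and Kcnj8, Abcc9 and Vtn (-0.16, -0.31 and -0.24) were not called. Myh11, Cnn1, Tagln and Mylk were positive and not called either. Of 5 tested markers of nerve and glia all had a negative log2 fold change (median -0.32) and Kcna1, a potassium channel of axons, fell from 1.19, 1.16 and 1.32 to 0.596, 0.504 and 0.390 TPM (-0.57 ± 0.14, adjusted p = 0.0104). Kcna1 entered the test through the control libraries only, and its call was lost without MHS 3 (0.0573).

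Macrophage markers rose in 3 (1 under the other scalings and without control 3 or MHS 1, 0 without any other library) and fell in 1 of 19, with summed levels between 475 and 546 and between 483 and 522 TPM that overlapped between groups. Of the 3 that rose 2, Spp1 and Gpnmb, had entered the test through the MHS libraries only, and their direction was set by the filter. Folr2, of resident macrophages, fell from 23.4, 31.9 and 24.6 to 19.5, 11.7 and 14.7 TPM (-0.78 ± 0.18, adjusted p = 0.00913), which was not called without control 2 (0.0614) or MHS 2 (0.0680). Ccr2, the receptor of recruited monocytes, rose from 0.966, 1.90 and 2.27 to 3.61, 4.19 and 3.61 TPM (0.85 ± 0.25, adjusted p = 0.0322), which was not called without control 1 or 2 (0.152 and 0.0620) or any one MHS library (0.0585, 0.110 and 0.0799) or after GC and length correction (0.0870). Few markers of lymphocytes, mesothelium, adipocytes and skeletal muscle passed the filter, 2 of each list. None of these was called by limma, and an unadjusted p under 0.05 was found in 0, 2, 1 and 1 of them. Of 7 markers of granulocytes and mast cells and 6 of erythroid cells, 0 were called by limma and 1 and 4 had an unadjusted p under 0.05. The haemoglobin gene Hba-a1 was at 3231, 3770.4 and 2600.4 TPM in controls and 2997, 1673 and 2422 TPM in MHS, values that near-identical copies of the gene make uncertain. Of the atrial list 1 of 5 tested members rose (Dkk3), summed between 292 and 401 and between 445 and 1379 TPM, most of it Nppa. The part of these cell types in the results was not tested.

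**Figure D3:**
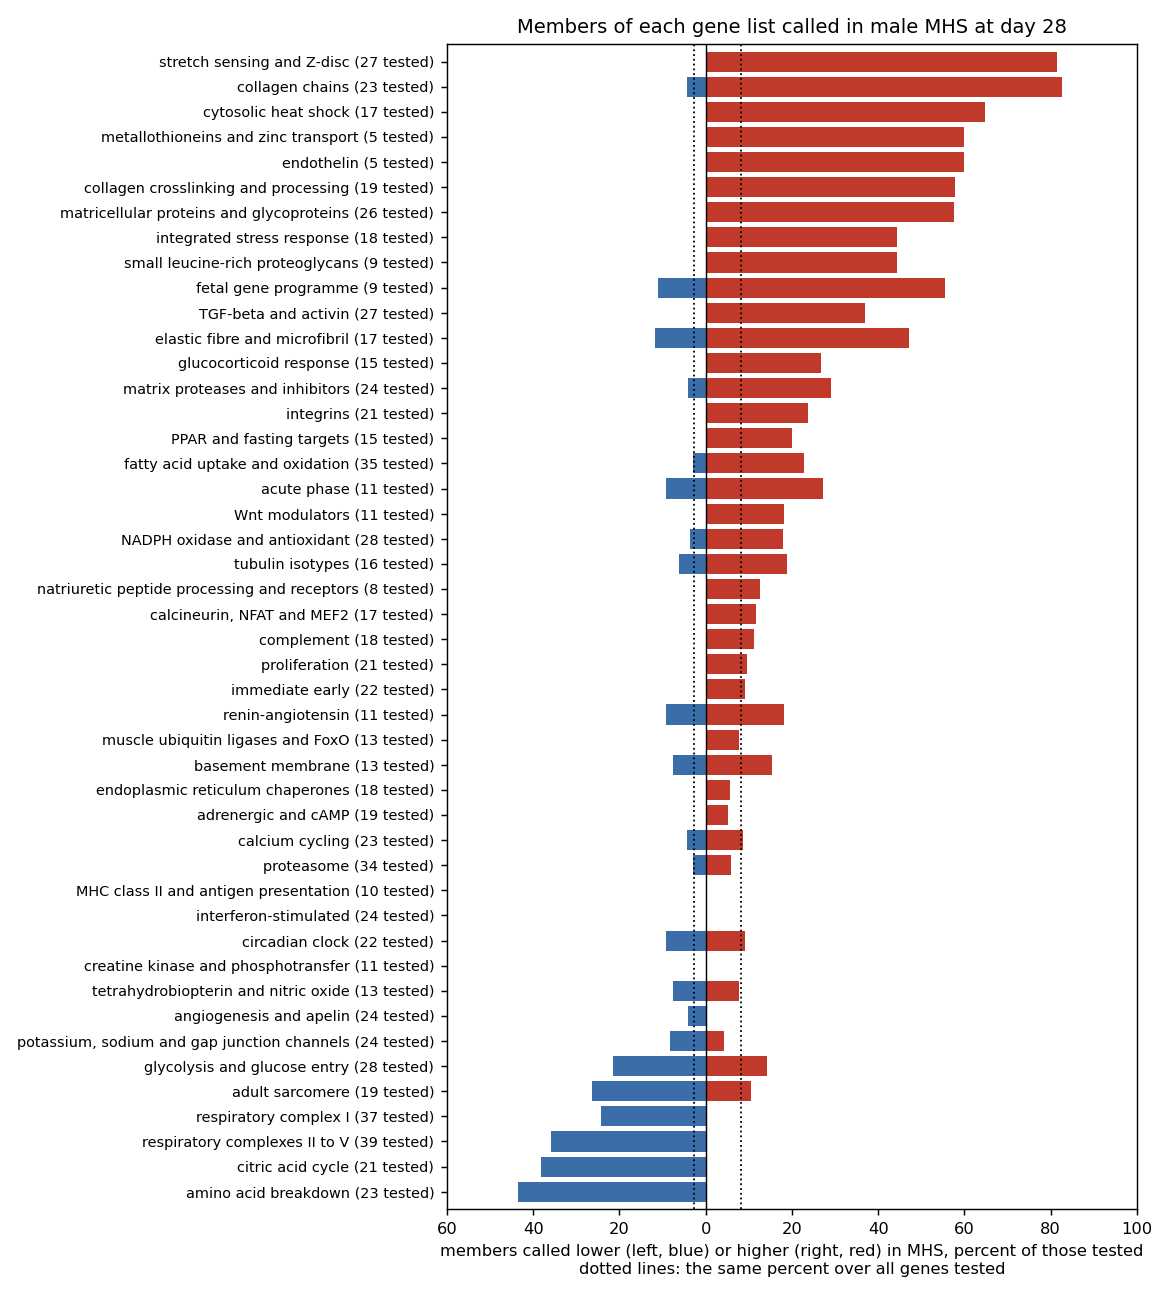
Percent of the tested members of each of 46 gene lists called lower (blue, to the left) or higher (red, to the right) in male MHS at day 28, with dotted lines at the percent over all tested genes (2.64% and 8.08%). Stretch sensing and Z-disc genes (22 of 27) and collagen chains (19 of 23) lead the higher side, and amino acid breakdown (10 of 23) the lower side.

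Hormone systems tied to the stressor were examined gene by gene. Of the endothelin genes 3 of 5 rose and none fell. Edn3, an endothelin ligand, was at 1.43, 1.36 and 0.610 TPM in controls and 9.24, 13.2 and 10.1 TPM in MHS (2.48 ± 0.24, adjusted p = 4.78e-06). Ednrb, its receptor of type B, went from 9.81, 11.0 and 14.8 to 21.6, 19.7 and 23.3 TPM (0.82 ± 0.13, adjusted p = 3.82e-04). The best known ligand, Edn1, was at 3.69, 5.19 and 5.59 TPM in controls and 5.17, 4.796 and 3.44 TPM in MHS and was not called (-0.09 ± 0.17, adjusted p = 0.797). Ednra, the type A receptor, rose by 0.44 ± 0.12 (adjusted p = 0.0236), but not without control 2 (0.136), MHS 1 (0.0711) or MHS 3 (0.0939) or under quantile normalization (0.0591).

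In the renin-angiotensin system Ace, the enzyme that makes AngII, rose from 38.1, 30.4 and 33.1 to 49.6, 59.9 and 59.96 TPM (0.72 ± 0.13, adjusted p = 9.86e-04). Agtr1a, the main AngII receptor of the mouse heart, fell from 49.0, 38.8 and 52.8 to 39.8, 32.3 and 31.2 TPM (-0.43 ± 0.11, adjusted p = 0.0160). The receptor ranges overlapped, and the call was lost without control 1 or 3 (0.0609 and 0.0730) or MHS 2 or 3 (0.0764 and 0.0936). Agt, angiotensinogen, rose from 3.95, 3.39 and 3.57 to 6.03, 5.76 and 6.09 TPM (0.59 ± 0.19, adjusted p = 0.0490), a call that was lost under median-of-ratios scaling (0.0714) and quantile normalization (0.117) and after GC and length correction (0.0563), and without control 1, 2 or 3 (0.0735, 0.148 and 0.0895) or MHS 1, 2 or 3 (0.0982, 0.105 and 0.135).

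Of 17 calcineurin, NFAT and MEF2 genes 2 rose. Rcan1, a calcineurin inhibitor that calcineurin itself induces, went from 116, 119 and 85.5 to 188, 202 and 241 TPM (0.98 ± 0.17, adjusted p = 6.99e-04). Rcan2 rose by 0.33 ± 0.08 (adjusted p = 0.0145), but not without control 2 (0.0789), MHS 2 (0.0615) or MHS 3 (0.0603). Tbc1d10c, which encodes carabin, another inhibitor of calcineurin, was among the 20 lowest genes and fell from 6.48, 6.61 and 6.13 to 2.94, 2.996 and 2.57 TPM (-0.95 ± 0.15, adjusted p = 3.94e-04). In the adrenergic list 1 of 19 rose, Grk5, a kinase that silences beta receptors (0.87 ± 0.20, adjusted p = 0.00804), and this call was lost without control 2 (0.0557). Adrb1, the beta-1 receptor, was at 26.1, 22.8 and 24.3 TPM in controls and 15.8, 21.2 and 20.6 TPM in MHS and was not called (adjusted p = 0.0792), but was called lower under median-of-ratios scaling (0.0360), quantile normalization (0.0320) and GC and length correction (0.0138).

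Integrated stress response genes, which ATF4 drives under amino acid shortage or mitochondrial stress, rose in 8 of 18 and fell in none (median 0.41), and in 5 without MHS 2 or under median-of-ratios scaling or quantile normalization. Mthfd2, a mitochondrial folate enzyme, was at 3.18, 2.75 and 1.57 TPM in controls and 6.84, 16.1 and 9.36 TPM in MHS (1.70 ± 0.23, adjusted p = 9.88e-05). Its highest value was in MHS 2. Atf5 went from 92.1, 85.4 and 76.3 to 135, 156 and 131 TPM (0.73 ± 0.10, adjusted p = 1.50e-04), Asns, asparagine synthetase, rose by 1.002 ± 0.20 (adjusted p = 0.00245) and the amino acid carrier Slc7a5 by 0.68 ± 0.10 (adjusted p = 2.86e-04). Of 18 chaperones of the endoplasmic reticulum 1 rose and none fell (median -0.01), and 0 rose under the other scalings or without control 1 or 2 or MHS 2 or 3.

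Cytosolic heat shock genes rose in 11 of 17 with TPM as deposited (median 0.37), but in only 2 under median-of-ratios scaling, while quantile normalization left 4. Removal of any one library left between 2 (without MHS 3) and 7 (without control 3). Cryab, alpha-B crystallin, an abundant guardian of desmin, went from 4491, 4170.5 and 3934 to 5224, 5190.4 and 5414 TPM (0.33 ± 0.07, adjusted p = 0.00276) and was not called under median-of-ratios scaling (0.0946). Bag3, the co-chaperone of Z-disc protein turnover, rose by 0.37 ± 0.08 (adjusted p = 0.00596, and 0.0507 without MHS 3). Hspa1l, an Hsp70 family member, rose further, from 7.05, 5.67 and 6.45 to 18.8, 18.5 and 19.7 TPM (1.44 ± 0.15, adjusted p = 1.27e-05).

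Of 15 glucocorticoid response genes 4 rose, and 2 rose without control 2 or 3 or MHS 1 or 3 or under median-of-ratios scaling or quantile normalization. Fkbp5, a co-chaperone of the receptor and a sensitive target, went from 7.52, 7.90 and 6.90 to 11.7, 14.3 and 10.9 TPM (0.65 ± 0.11, adjusted p = 0.00102). Cdkn1a, the cell cycle inhibitor p21, went from 35.8, 24.7 and 17.2 to 68.0, 53.4 and 47.2 TPM (1.13 ± 0.25, adjusted p = 0.00603). Mt2, a metallothionein that binds zinc, was at 54.0, 56.9 and 53.6 TPM in controls and 179, 143 and 127 TPM in MHS (1.42 ± 0.33, adjusted p = 0.00904), the MHS libraries being all above the controls. Its neighbour Mt1 rose by 0.55 ± 0.16 (adjusted p = 0.0272), which was lost under median-of-ratios scaling (0.0944) and without control 1 or 3 (0.0618 and 0.0805) or MHS 1 or 3 (0.137 and 0.0623). Serpina3n, an acute-phase protease inhibitor, went from 9.57, 7.40 and 6.56 to 26.8, 30.0 and 19.95 TPM (1.58 ± 0.31, adjusted p = 0.00234).

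In the list of NADPH oxidases and antioxidant enzymes 5 of 28 rose and 1 fell, and 3 rose without MHS 1 or MHS 2 or under median-of-ratios scaling or quantile normalization. Nox4, an oxidase that makes hydrogen peroxide, was at 0.533, 0.391 and 0.670 TPM in controls and 2.54, 3.20 and 2.23 TPM in MHS (1.25 ± 0.25, adjusted p = 0.00266). Of the 5 that rose, Nox4 alone entered the test through the MHS libraries only, so that its direction was set by the filter. Cat, catalase, which breaks peroxide down, went from 247, 237 and 278 to 376, 360.3 and 346 TPM (0.51 ± 0.08, adjusted p = 2.77e-04). Extracellular superoxide dismutase, Sod3, rose by 0.60 ± 0.12 (adjusted p = 0.00344). Prdx5 fell (-0.21 ± 0.05, adjusted p = 0.0176), which was lost without control 1 or 2 (0.0805 and 0.0613) or MHS 2 or 3 (0.0544 and 0.109).

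Genes of energy metabolism changed by small amounts and mostly downward. Citric acid cycle enzymes fell in 8 of 21 and rose in none (median -0.18), and fell in 4 without MHS 3 and 12 after GC and length correction. Sdha, which also belongs to respiratory complex II, went from 1335, 1289 and 1366 to 1079, 1100.5 and 1062 TPM (-0.30 ± 0.05, adjusted p = 4.51e-04). Idh3b of isocitrate dehydrogenase fell as well (-0.21 ± 0.04, adjusted p = 0.00137). The difference in Sdha was well below a fold of 2, but the 3 MHS libraries lay close together and under all controls.

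Among the pathway lists breakdown of amino acids had the largest share of members that fell, 10 of 23, and none rose (median -0.21). Bckdhb and Bckdha, the subunits of the dehydrogenase that commits branched-chain amino acids to oxidation, went from 86.9, 75.2 and 76.8 to 51.2, 55.9 and 50.3 TPM (-0.59 ± 0.07, adjusted p = 2.27e-05) and from 408, 389 and 355 to 276, 297 and 261 TPM (-0.46 ± 0.07, adjusted p = 2.79e-04). Ivd, a step of leucine oxidation, went from 269, 249.9 and 254 to 183, 189 and 173 TPM (-0.50 ± 0.06, adjusted p = 2.43e-05). Gcat, of threonine breakdown, fell further, from 12.0, 8.94 and 11.7 to 5.83, 4.38 and 5.09 TPM (-0.96 ± 0.15, adjusted p = 3.24e-04). Gcdh, of lysine and tryptophan breakdown, went from 72.2, 70.5 and 70.3 to 47.7, 48.9 and 44.8 TPM (-0.58 ± 0.06, adjusted p = 4.58e-06). Under the other scalings 13 or 14 members of the list fell.

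Nuclear genes of the respiratory chain fell as well, 9 of 37 in complex I (median -0.14) and 14 of 39 in complexes II to V (median -0.18), and none rose. Cox7a1, the muscle isoform of a cytochrome oxidase subunit, went from 4509, 5755 and 4875 to 3913, 3678 and 3549.9 TPM (-0.44 ± 0.08, adjusted p = 0.00222). Uqcrc1 of complex III (-0.31 ± 0.06, adjusted p = 0.00191), Atp5a1 of the ATP synthase (-0.24 ± 0.05, adjusted p = 0.00230) and Ndufv1 of complex I (-0.28 ± 0.05, adjusted p = 0.00129) fell too. The counts rested on single libraries. For complex I they were 4 without control 1, 2 without control 2, 14 without control 3, 4 without MHS 2 and 2 without MHS 3. For complexes II to V they were 8 without control 1, control 2 or MHS 2 and 7 without MHS 3. Median-of-ratios scaling gave 5 for complex I and 11 for the others, and GC and length correction 15 and 13. In the fit on these 6 libraries alone 0 genes of complex I and 4 of complexes II to V were lower, Ndufv1 (0.0563) and Atp5a1 (0.0588) were not called, and 3 citric acid cycle genes were lower.

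Some fatty acid genes rose. Fabp3, the fatty acid binding protein of muscle, rose from 12388, 12784 and 12921 to 16811, 16151 and 16978 TPM (0.39 ± 0.06, adjusted p = 3.00e-04). Cpt1b, which admits fatty acids to mitochondria, went from 572, 520.1 and 546 to 665, 695 and 648 TPM (0.29 ± 0.05, adjusted p = 9.49e-04). Both were called higher under every alternative tried. Over the list 8 of 35 rose and 1 fell, but the median was 0.06, near that of all genes, and 2 rose under median-of-ratios scaling, where 1 fell. Under quantile normalization and after GC and length correction 4 rose and 3 and 4 fell, and 4 rose without control 1 or 2 or MHS 2 or 3 and 5 without MHS 1. Of 15 PPAR and fasting targets 3 rose, and 1 without control 1 or MHS 3. Cidea, a lipid droplet protein, had the smallest p (41.8, 46.9 and 40.2 TPM in controls, 66.4, 71.4 and 64.3 TPM in MHS, 0.64 ± 0.10, adjusted p = 4.37e-04).

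In glycolysis, isoforms of phosphofructokinase moved in opposite directions. Pfkp, the platelet form, rose from 31.5, 30.4 and 29.8 to 49.9, 66.6 and 62.1 TPM (0.93 ± 0.12, adjusted p = 5.54e-05), while Pfkm, the muscle form, fell from 853, 814 and 823 to 656, 704 and 679 TPM (-0.29 ± 0.04, adjusted p = 3.35e-04). Pfkm remained the more abundant of the 2 in every library. Ldhb, the heart form of lactate dehydrogenase, fell from 2682, 2648 and 2668 to 2064, 1993 and 1994 TPM (-0.40 ± 0.05, adjusted p = 3.56e-05), and Eno3, the muscle enolase, fell (-0.49 ± 0.07, adjusted p = 2.06e-04). In all 4 of 28 members rose and 6 fell, with 2 higher without control 2, MHS 2 or MHS 3. None of 11 creatine kinase and phosphotransfer genes was called by limma with TPM as deposited, where 4 had an unadjusted p under 0.05, and up to 4 were called lower under the other scalings.

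**Figure D4:**
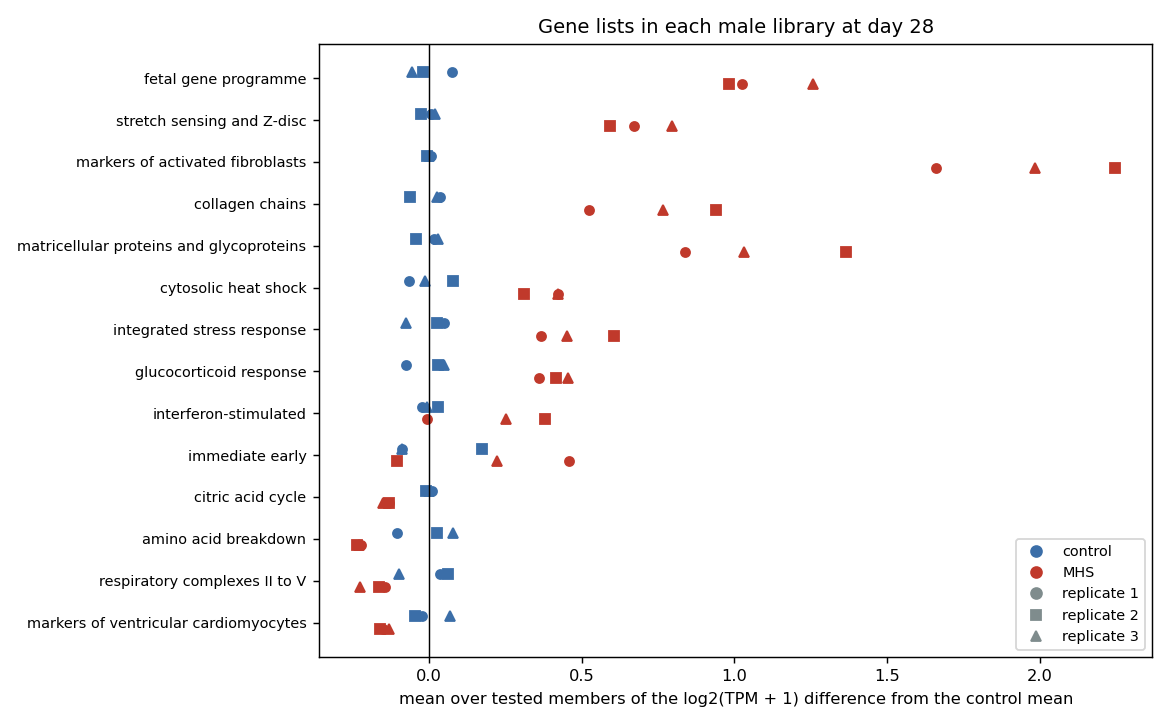
Mean over the tested members of 14 gene lists of the difference in log2(TPM + 1) from the control mean, for each control (blue) and MHS (red) library at day 28, with marker shape for the replicate. Activated fibroblast markers lie at 1.66, 2.24 and 1.98 in MHS 1 to 3 with no control beyond 0.01, while interferon-stimulated and immediate early genes overlap between the groups.

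The MHS libraries did not carry each programme to the same degree. The mean difference from the controls over the matricellular genes was 0.84, 1.37 and 1.03 in MHS 1, 2 and 3, and over the collagen chains 0.52, 0.94 and 0.77, so MHS 2 was the highest and MHS 1 the lowest in both of these lists. For the stretch and Z-disc genes it was 0.67, 0.59 and 0.79, with MHS 3 the highest. Interferon-stimulated genes were at -0.01, 0.38 and 0.25, that is in MHS 1 at the level of the controls. Immediate early genes were at 0.46, -0.10 and 0.22, with control 2 at 0.17 above MHS 2.

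Among the genes that fell past a fold of 2 were some in none of the lists. Lrrc4b, a synaptic adhesion protein, went from 19.6, 14.4 and 20.1 to 9.96, 4.67 and 5.81 TPM (-1.33 ± 0.19, adjusted p = 1.60e-04). Scgb1c1, a secretoglobin, went from 53.6, 52.5 and 61.5 to 26.3, 18.4 and 24.1 TPM (-1.26 ± 0.21, adjusted p = 6.32e-04). Gchfr, the feedback regulator of the first enzyme of tetrahydrobiopterin synthesis, a cofactor of nitric oxide synthase, went from 11.0, 11.9 and 10.4 to 4.37, 4.78 and 4.28 TPM (-1.14 ± 0.11, adjusted p = 4.58e-06). The lowest control was more than 2 times the highest MHS value. Of 13 tested genes of tetrahydrobiopterin and nitric oxide Gchfr alone fell and Ddah2, which clears a nitric oxide synthase inhibitor, rose (0.44 ± 0.10, adjusted p = 0.00577). Under quantile normalization Ddah2 was not called (0.0556), and Pts (0.0316) and Qdpr (0.0333), enzymes of tetrahydrobiopterin synthesis and recycling, were called lower. Qdpr was also lower after GC and length correction (0.0365) and without MHS 2 (0.0364).

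Several of the 20 lowest genes encode signals. Penk, the precursor of enkephalin peptides, went from 11.2, 9.76 and 10.1 to 5.65, 4.68 and 3.49 TPM (-1.04 ± 0.20, adjusted p = 0.00198). Apln, the peptide ligand of the apelin receptor, which relaxes vessels and strengthens contraction, went from 19.0, 13.5 and 16.6 to 9.58, 7.87 and 8.99 TPM (-0.82 ± 0.16, adjusted p = 0.00289). Il15, a cytokine of lymphocyte survival that muscle also makes, went from 37.6, 46.7 and 40.1 to 24.2, 22.7 and 22.0 TPM (-0.82 ± 0.14, adjusted p = 6.95e-04). Ranges that do not overlap were a condition for the set of 20, so they are no added result for these 3. Ces1d, a carboxylesterase that hydrolyses lipids, was abundant in controls at 156, 159 and 154 TPM and fell to 88.7, 74.5 and 68.8 TPM (-1.01 ± 0.11, adjusted p = 9.98e-06). Pla2g5, a secreted phospholipase A2, Ripor2, an inhibitor of RhoA, Lingo3, Clcn1, the skeletal muscle chloride channel, Rtn2, a reticulon, Spc24 of the kinetochore and Acsl6, an acyl-CoA synthetase, had log2 fold changes between -0.95 and -0.76 (adjusted p between 5.54e-05 and 0.00592).

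The immune lists differed in their share of calls. Of 11 acute-phase genes 3 rose, Serpina3n among them, and 1 fell, against 8.08% and 2.64% over all tested genes. The number that rose was 2 under median-of-ratios scaling or quantile normalization and without control 1, control 2, MHS 1 or MHS 3. None of 24 interferon-stimulated genes and none of 10 antigen presentation genes was called by limma, with 8 and 0 at an unadjusted p under 0.05. Without control 3 or MHS 1, or after GC and length correction, 1 interferon-stimulated gene was called higher. The smallest p of each list was that of Oasl2 (8.90, 8.84 and 7.80 TPM in controls, 9.84, 10.7 and 12.6 TPM in MHS, adjusted p = 0.0790) and that of H2-DMa (5.57, 5.98 and 6.39 and 4.30, 5.72 and 4.45 TPM, adjusted p = 0.486). Of 18 complement genes 2 rose, and Masp1, a protease of the lectin pathway, had the smallest p (1.05 ± 0.16, adjusted p = 2.60e-04). The other was C4b (1.07 ± 0.31, adjusted p = 0.0319), which was not called under quantile normalization (0.0549) or without control 1, 2 or 3 (0.0538, 0.118 and 0.0574) or MHS 2 or 3 (0.128 and 0.0711).

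Of 22 immediate early genes 2 rose. Egr3, a transcription factor induced by acute stimuli, was at 0.694, 0.989 and 0.824 TPM in controls and 8.46, 2.44 and 4.27 TPM in MHS (1.60 ± 0.33, adjusted p = 0.00344), highest in MHS 1, and entered the test through the MHS libraries only. The other was Ier3, an early response gene (0.69 ± 0.21, adjusted p = 0.0450), which was not called under median-of-ratios scaling (0.0850), under quantile normalization (0.0891) or without control 1, 2 or 3 (0.0568, 0.170 and 0.0736) or MHS 1, 2 or 3 (0.0626, 0.136 and 0.124). Of 21 proliferation genes 2 rose, one of them the inhibitor Cdkn1a, and 1 rose without control 3, MHS 2 or MHS 3 or under the other scalings and 4 without MHS 1. Of 24 angiogenesis genes Apln alone was called, but 2 rose without control 3, 3 without MHS 1 and 4 with array weights, and 2 fell without control 1 or after GC and length correction. Of 13 ubiquitin ligase and FoxO genes Bnip3, a mitophagy receptor, alone rose (0.73 ± 0.15, adjusted p = 0.00415). Of 16 tubulin isotypes 3 rose and Tuba4a fell (-0.55 ± 0.13, adjusted p = 0.00706). Of those that rose, Tuba1c was not called without MHS 3 (0.0593), and Tubb3 was not called under median-of-ratios scaling (0.0565), under quantile normalization (0.0779) or without control 2, control 3, MHS 2 or MHS 3 (adjusted p = 0.139 without MHS 3). Of 34 proteasome genes 2 rose and Psme1 of the immunoproteasome activator fell (-0.29 ± 0.07, adjusted p = 0.00990, and 0.0631 without MHS 2). The pair that rose was called under none of the other scalings, and 1 was called without control 1 or MHS 1 and 0 without control 2, MHS 2 or MHS 3.

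The circadian clock list had 2 members higher and 2 lower of 22. None was called without control 1, control 2 or MHS 3, while 5 rose without control 3. Per2, a repressor of the clock, went from 2.47, 2.40 and 3.54 to 6.15, 8.94 and 9.92 TPM (1.29 ± 0.37, adjusted p = 0.0278), and Npas2, an activator, from 4.41, 3.57 and 2.91 to 1.93, 1.37 and 1.54 TPM (-0.82 ± 0.24, adjusted p = 0.0324). Neither was called without control 1 or 2 or MHS 2 or 3 (adjusted p for Per2 0.0776, 0.0990, 0.0918 and 0.115, for Npas2 0.120, 0.0881, 0.116 and 0.0982), nor was Per2 under quantile normalization (0.0513). Arntl, the partner of Npas2, was at 14.7, 15.7 and 11.0 TPM in controls and 8.72, 6.23 and 5.87 TPM in MHS and was not called (adjusted p = 0.0937), although the ranges were apart and it was called lower after GC and length correction (0.0432), with array weights (0.0232) and in the fit on these 6 libraries alone (0.0314). The hour at which tissue was taken is not in the labels, so the part of sampling time in these values was not tested.

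Female mice under the same stress were compared to ask which changes differed by sex. No library is shared between the male and the female comparison. In females 746 of the 12519 genes (5.96%) were called for MHS at day 28. Of the 1011 genes that rose in males 980 had a positive log2 fold change in females and 337 were called higher there, and of the 331 that fell 322 were negative and 160 were called lower. The 497 genes called the same way are 37.0% of the male and 66.6% of the female calls. All 109 genes that rose past a fold of 2 in males were positive in females, with a median of 0.98 there against 1.26 in males, where the genes were chosen. Acta1 was close in both (3.01 ± 0.40 in females), as were Timp1 (2.31 ± 0.40) and Col8a1 (2.01 ± 0.24).

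A difference between the sexes was itself tested in each gene, as the female minus the male effect. Of the 12519 genes 1 (0.00799%) was called by limma, and 544 had an unadjusted p under 0.05. The gene was Gchfr. In females it was at 6.32, 7.90 and 7.39 TPM in controls and 6.77, 6.40 and 6.27 TPM in MHS (-0.13 ± 0.11), and the effects differed by 1.01 ± 0.16 on the log2 scale (adjusted p = 0.0275). The female controls started below the male controls, and the female MHS libraries lay above the male ones. The call was lost under median-of-ratios scaling (0.0688) and quantile normalization (0.0728) and without 10 of the 12 libraries taken one at a time (adjusted p from 0.0556 to 0.156). It was kept without male control 3 (0.0479) and female control 2 (0.0319). Fkbp5 rose from 4.93, 5.46 and 5.53 to 14.8, 15.2 and 17.8 TPM in females (1.42 ± 0.11, adjusted p = 8.96e-07), but the difference of 0.78 ± 0.16 from the male effect was not called (adjusted p = 0.478). With TPM as deposited the difference by sex was called for no other gene.

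Atrial transcripts set some libraries of these comparisons apart. Myl7 was at 6.28, 625 and 2.74 TPM in the female controls, 1.01, 0.556 and 125 TPM in female MHS and 57.3, 1.58 and 0.403 TPM in male MHS_RR, and Dkk3, of the same list, was at 2.87, 41.9 and 2.62 TPM in the female controls. Their part in the results was not tested. Without female control 2 and female MHS_RR 3, the number of genes called in male MHS was 1325 and the sex difference of Gchfr was called (adjusted p = 0.0464). Female MHS 3 and male MHS_RR 1 remained in that fit.

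**Figure D5:**
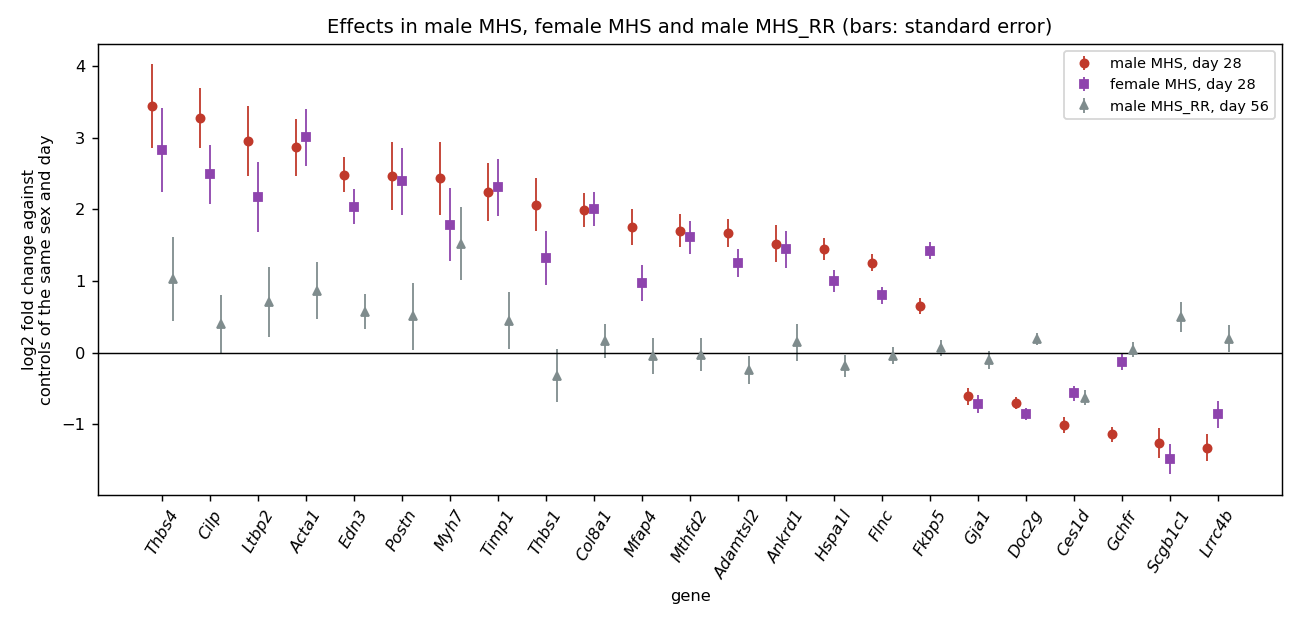
Log2 fold change with its standard error of 23 genes in male MHS (red circles) and female MHS (purple squares) against controls at day 28 and in male MHS_RR against controls at day 56 (grey triangles). Male and female effects lie on the same side of 0 in every gene shown, Gchfr is at -0.13 in females against -1.14 in males, and every MHS_RR effect shown lies nearer to 0 than the male MHS effect.

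The male MHS effect at day 28 was also set against that of MHS_RR at day 56, each with its own controls. In MHS_RR 12 genes (0.0959%) were called by limma, 2300 having an unadjusted p under 0.05. The MHS_RR effect differed from the MHS effect in 1095 genes (8.75%), 948 of them lower and 147 higher in MHS_RR. This balance moved with scaling, as the median difference over all genes was -0.11 with TPM as deposited and 0.02 under median-of-ratios scaling, where 420 were lower and 236 higher. Without 1 library the count lay between 441 and 1307. Of the 109 genes that rose past a fold of 2 under MHS, 69 had a lower effect in MHS_RR by this test, and their median log2 fold change there was 0.11. These genes were chosen by their effect in the same MHS and control libraries, which favours a lower effect in MHS_RR. None of the 109 was called in MHS_RR.

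The genes with the smallest p of this difference are given by library. Flnc was at 98.0, 109 and 102 TPM in the day 56 controls and 105, 87.2 and 109.7 TPM in MHS_RR (-0.04 ± 0.12), and the effects differed by -1.30 ± 0.17 (adjusted p = 5.51e-04). Hspa1l was at 6.19, 9.56 and 6.41 and 7.32, 6.51 and 5.14 TPM (difference -1.62 ± 0.22, adjusted p = 5.51e-04). Uck2, a uridine-cytidine kinase, rose under MHS from 46.3, 38.0 and 37.0 to 91.5, 95.5 and 119.9 TPM and was at 49.0, 47.6 and 40.9 and 43.0, 37.3 and 38.5 TPM at day 56 (difference -1.52 ± 0.20, adjusted p = 5.51e-04). In these 3 genes the ranges at day 56 overlapped. Trim72, a membrane repair protein, and Cd34, a surface protein of endothelial and progenitor cells, were lower in every MHS_RR library than in any control at day 56 (differences -0.69 ± 0.08 and -0.77 ± 0.10, adjusted p = 5.51e-04 for both). Among genes that fell under MHS, Doc2g went from 345, 331 and 347 to 206, 208 and 212 TPM and was at 358, 330.1 and 333 TPM in the day 56 controls and 363, 442 and 360.3 TPM in MHS_RR (difference 0.89 ± 0.11, adjusted p = 5.51e-04). Gchfr was at 10.4, 13.6 and 10.8 and 11.6, 13.5 and 10.8 TPM (difference 1.19 ± 0.16, adjusted p = 5.51e-04).

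For other genes the difference was not called. Myh7 was at 38.4, 30.1 and 40.0 TPM in the day 56 controls and 197, 75.8 and 77.0 TPM in MHS_RR (1.52 ± 0.51, adjusted p = 0.133), every MHS_RR library being above every control, and its difference from the MHS effect was -0.91 ± 0.72 (adjusted p = 0.452). Thbs4 was at 2.68, 2.52 and 3.13 and 14.1, 3.50 and 5.69 TPM (difference -2.41 ± 0.83, adjusted p = 0.0735), highest in MHS_RR 1, the male MHS_RR library with the most Myl7. Ces1d was at 119.9, 143 and 147 TPM in the day 56 controls and 75.7, 88.4 and 99.9 TPM in MHS_RR and was one of the 12 genes called there (-0.63 ± 0.11, adjusted p = 0.0194), with a difference of 0.38 ± 0.15 from the MHS effect that was not called (adjusted p = 0.112).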

How the data were processed

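RNA was taken from the free wall of the left ventricle with TRIzol and sequenced after stranded mRNA library preparation. The authors deposited TPM per gene symbol for 24 libraries in 8 groups of 3. The submitters' processing notes name STAR, Salmon and mm9, and versions are not given in the sources used here. TPM keeps no depth, so counting errors are unknown and no count model was used. All 24 columns were mapped to samples by name.

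Genes with at least 1 TPM in at least 3 of the 6 libraries compared were tested as log2(TPM + 1) with limma 3.58.1 in R 4.3.3. The model held the mean of each of the 8 groups over all 24 libraries, with an intensity trend, and p-values were adjusted over 12519 genes. Differences of effects were contrasts of the same model. The script was tested on simulated data.

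The genes named are the 20 highest and 20 lowest fold changes among called genes whose ranges did not overlap and whose mean was at least 5 TPM in the higher group, the 4 smallest p-values of each of 60 gene lists, the 5 smallest p-values in each direction of each difference of effects, and 30 listed genes. The members, lists and rule were chosen with earlier results of these data known. Alternatives were other scalings, pseudocounts of 0.1 and 0.5, filters, a fit on the compared groups only, no trend, array weights, a replicate block, correction for GC content and length (99.4% of genes had both) and leaving out libraries. Some genes that the rule named are not reported here.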

Additional observations from a re-analysis of the deposited data

Results flagged for a closer look

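Gchfr, which encodes the feedback regulator of tetrahydrobiopterin synthesis, was the one gene whose response to MHS at day 28 differed between the sexes by limma's test of the difference itself. The female minus male difference was 1.01 on the log2 scale (adjusted p = 0.0275). It was not called under median-of-ratios scaling (0.0688), quantile normalization (0.0728), no filter (0.0570) or the fit on the compared groups only (0.116), or without 10 of the 12 libraries taken one at a time (from 0.0556 to 0.156). Gchfr fell in all 3 male MHS libraries relative to all 3 male controls, while the female MHS libraries (between 6.27 and 6.77 TPM) lay within the range of the female controls (between 6.32 and 7.90 TPM) or just under it. No measurement of tetrahydrobiopterin or nitric oxide was used here.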

How the results depend on the processing

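None of the 253 named genes changed the sign of its male MHS effect under an alternative while called in either fit. The balance of all calls did turn, from 1011 higher and 331 lower with TPM as deposited. It was 619 and 642 with quantile normalization and 771 and 832 with GC and length correction. The count of 1342 genes called in male MHS became 653 when only the compared groups were fitted and 2164 with array weights, and lay between 690 and 1273 with 1 library left out. The 1 gene whose effect differed by sex was lost (0 genes) under median-of-ratios scaling, quantile normalization, no filter and the fit on the compared groups only. There were 2 genes with array weights or with the replicate block and GC and length correction together, 3 with that correction alone, and between 0 and 1 with 1 library left out. The count of 1095 genes whose effect differed between MHS_RR and MHS became 656 under median-of-ratios scaling, 655 under quantile normalization, 463 in the fit on the compared groups only, 3030 with array weights and 712 with GC and length correction, and lay between 441 and 1307 with 1 library left out. The cause of these changes was not tested.

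Of the 178 named genes that were called, 106 were called under every alternative. Correlations of the deviations of same-numbered control and MHS libraries were -0.32, -0.25 and 0.34, and those of differently numbered ones lay between -0.39 and 0.49. With 3 libraries per group these values cannot decide whether the numbers pair the samples. The replicate block gave 1531 calls. TPM gives no depth, so what depth limits in low genes cannot be stated.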
